A study of Mus musculus with 32 samples.

Results

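The comparison described here sets the whole brain of DBA/2J (D2) mice against that of C57BL/6J (B6) mice, the inbred parental strains of a pair of reciprocal congenic lines. Members were the arrays whose strain label is D2 or B6: 6 D2 and 10 B6 arrays, 16 of the 32 arrays of the series. Each array is 1 naïve male with no treatment, and total RNA of its whole brain was hybridized to an Illumina Mouse Ref8 v2 array. The other 16 arrays are 6 of the R2 congenic, which is D2 across the genome except for a B6 segment of distal chromosome 1, and 10 of the R8 congenic, which is B6 except for a D2 segment that lies within the R2 segment. The groups share sex, tissue and the absence of treatment and differ in genotype. D2 and B6 differ across the whole genome, so a difference between them cannot be assigned to any 1 locus.

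B6 and D2 are among the most widely used inbred strains in alcohol research. Inbreeding has fixed a single allele at nearly every locus of each strain, and the alleles differ by single bases, by small insertions and deletions, and at some loci by the number of gene copies. Such differences can act on the transcript of the gene they lie in or near (in cis) or on genes elsewhere (in trans). D2 mice show severe convulsions on withdrawal from alcohol and B6 mice mild ones. The probes of the array are oligonucleotides designed on the mouse reference sequence, which is that of B6. A base that differs in D2 under a probe can weaken its binding to D2 RNA without any difference in RNA abundance, and the part of such bases in the differences below was not tested.

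Strain was the largest source of variation among the arrays. The first principal component held 53.5% of the variance, with the D2 arrays between 25.9 and 31.6 and the B6 arrays between -17.2 and -15.0. Arrays correlated at 0.976 to 0.993 within D2, at 0.986 to 0.994 within B6 and at 0.956 to 0.972 between the strains. D2 replicate 1 stood apart from the other D2 arrays on the second component, which held 10.6% of the variance. Median raw signals ranged from 424.7 to 535 in D2 and from 382.8 to 578.5 in B6, and the number of probes detected at p below 0.01 ranged from 11267 to 11949 and from 11223 to 12252. None of 6 tested neuronal markers was called, with a median log2 difference of -0.00444 (D2 minus B6). The one with the smallest p, Rbfox3, which encodes the nuclear antigen NeuN, was at -0.15 ± 0.06 (adjusted p = 0.107) and was called under 1 of 30 alternative settings, with intensity-trended and robust variances.

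Of 25697 probes, 11991 were detected in at least 6 of the 16 arrays and tested by limma. At a Benjamini-Hochberg adjusted p below 0.05, 2138 probes were called, which is 17.8% of those tested. Of these, 1042 (8.69%) were higher and 1096 (9.14%) lower in D2. At an unadjusted p below 0.01, the threshold of the methods, 2201 probes (18.4%) passed, and for 921 probes (7.68%) the arrays of the strains did not overlap. Represented by its tested probe with the highest mean signal, 1565 of 8447 genes (18.5%) were called, 773 (9.15%) higher and 792 (9.38%) lower in D2, and the arrays did not overlap for 690 genes (8.17%). Values below are log2 signals after background correction and normalization, and differences are D2 minus B6 on that scale.

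The share of calls lower in D2 differed between size classes. Among probes called at less than 0.5 on the log2 scale, 601 of 1336 (45.0%) were lower in D2. Between 0.5 and 1 the share was 55.5% of 519 probes, between 1 and 2 it was 67.6% of 182 probes, and at 2 or more (4-fold) 84 of 101 probes (83.2%) were lower in D2. Of these 101 probes, 78 were not detected on any array of 1 strain, 69 of them in D2 and 9 in B6, so their fitted size rests on background. These probes passed the filter only through the strain in which they were high, and the filter of 6 arrays is met by 6 of 10 arrays for a probe seen in B6 alone but needs all 6 arrays for a probe seen in D2 alone, so the shares by size describe the probes that passed. Among probes detected in all 16 arrays, 13 were at least 4-fold lower and 6 at least 4-fold higher in D2. Over all tested probes, 88 were detected in every B6 array and no D2 array, and 26 in every D2 array and no B6 array.

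The R2 and R8 arrays gave the same strain contrast in other mice. Outside the R2 segment R2 carries D2 and R8 carries B6 sequence, and none of these 16 arrays enters D2 minus B6. Any D2 base under a probe there is shared by D2 and R2, and its part in the agreement below was not tested. In R2 minus R8, 2648 of 11832 tested probes were called (22.4%), 1395 higher and 1253 lower in R2. Outside the segment, 1953 probes called in D2 minus B6 were also tested in R2 minus R8, and 1828 of them (93.6%) had the same sign. Of these, 1320 were called in both comparisons in the same direction and 2 in opposite directions. Across the 11020 probes tested in both, Pearson's r of the differences was 0.903 and Spearman's rho 0.495, as a description, since probes are not independent replicates. The same sign was found for 1183 of 1327 probes called at less than 0.5, for 501 of 505 at 0.5 to 1, for 169 at 1 to 2 with 3 opposite and for 98 of 99 at 2 or more.

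**Figure D1:**
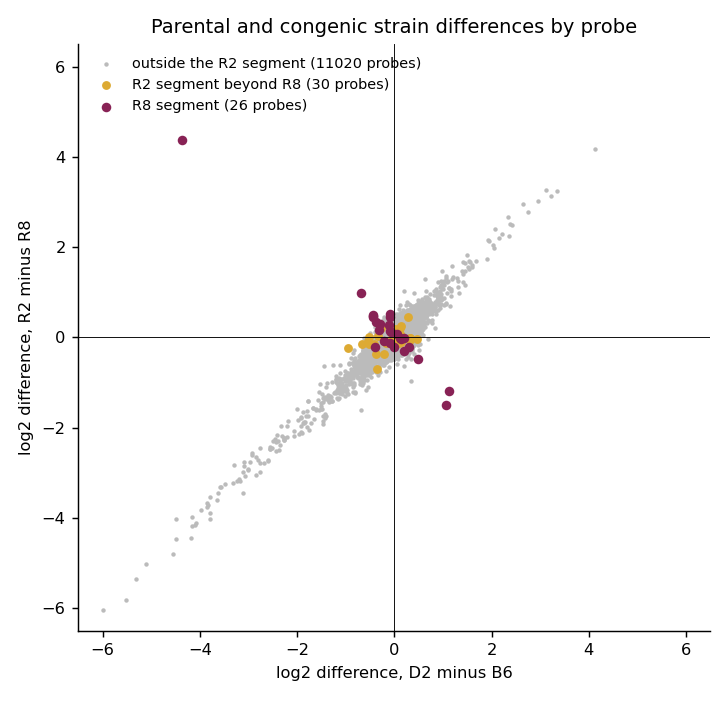
Each point is 1 probe, with the log2 difference D2 minus B6 on the x axis and R2 minus R8 on the y axis. The 11020 probes outside the R2 segment lie along the rising diagonal (r = 0.903), the 26 probes of the R8 segment along the falling one (r = -0.974), and most of the 30 probes of the R2 segment beyond R8 lie near 0 on the y axis.

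The direct test of the difference between the contrasts, (D2 minus B6) minus (R2 minus R8) over all 32 arrays, called 37 of 12351 probes (0.3%). Of these, 12 were among the 26 tested probes of the R8 segment and 6 among the 32 of the R2 segment beyond R8. Outside the segment 16 of 11570 were called, and 3 called probes had no position. The genes outside the segment included Atf5, a stress-induced transcription factor, at -0.15 in D2 minus B6 (adjusted p = 0.202) and 0.37 in R2 minus R8 (adjusted p = 0.000424, adjusted p of the difference 0.011). Cort, which encodes the neuropeptide cortistatin, was lower by both of its probes in D2, at -1.26 and -1.45, and at -0.62 and -0.64 in R2 minus R8. The test of the difference passed for the second probe (adjusted p = 0.0352) and not for the first (0.0542). Insm1, a transcription factor of neuroendocrine cells, and Leo1, a subunit of the PAF1 elongation complex, were the genes called in opposite directions, at -0.25 and -0.23 in D2 minus B6 and 0.24 and 0.17 in R2 minus R8. The D2 minus B6 call was lost under 17 of 30 alternative settings for Insm1 and 14 of 30 for Leo1.

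In the R8 segment the alleles are exchanged between the congenics, since R8 carries D2 and R2 carries B6 sequence there. Of 26 tested probes, 12 were called in D2 minus B6 (46.2%, beside 17.8% of all probes), and 11 of these were called with the opposite sign in R2 minus R8. Fcer1g, the gamma chain that Fc receptors signal through, showed the greatest difference. Its log2 signal ranged from 10.22 to 10.72 in B6 (median 10.37) and from 5.66 to 7.38 in D2 (median 5.81), where no array detected it. It was at least 5.41-fold lower in D2 (adjusted p = 6.03e-13). With all 32 arrays normalized together, its lowest, median and highest values were 9.39, 10.29 and 10.66 in R2 and 5.58, 5.79 and 5.88 in R8, so the strains with the B6 allele were high and those with the D2 allele low, with no overlap.

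Fcgr3, a low-affinity receptor for IgG that pairs with this gamma chain, went the other way. Its signal was 7.63 to 8.70 in B6 (median 8.32) and 8.85 to 9.85 in D2 (median 9.37), a difference of 1.06 ± 0.15 (SE, adjusted p = 1.88e-05), and -1.51 in R2 minus R8. Adamts4, a protease that cleaves the proteoglycans of the extracellular matrix, ranged from 9.36 to 10.06 in B6 (median 9.75) and from 10.62 to 11.15 in D2 (median 10.87). Its signal was 2.18-fold higher in D2 (1.12 ± 0.10, adjusted p = 2.1e-08) and at -1.19 in R2 minus R8. The paper reports quantitative PCR of R8 against B6 in other mice. There Adamts4 differed in the opposite direction to the array, and Ppox, Copa, Ncstn and Ufc1, described below, in the same direction. B4galt3, a galactosyltransferase, was higher in D2 by 0.49 ± 0.06 by its brighter probe (adjusted p = 1.55e-06). Its other probe was at -0.00 (adjusted p = 0.986).

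Genes lower in D2 lay side by side in the segment. Vangl2, a planar cell polarity protein of neural development, ranged from 9.73 to 10.18 in B6 (median 9.97) and from 9.02 to 9.52 in D2 (median 9.28), a difference of -0.69 ± 0.08 (adjusted p = 1.59e-06). It was at 0.99 in R2 minus R8. Copa, the alpha subunit of the coatomer of transport vesicles, was at 12.43 to 12.89 in B6 (median 12.69) and 11.96 to 12.39 in D2 (median 12.25), a difference of -0.45 ± 0.09 (adjusted p = 0.000759). Ncstn, which encodes the gamma-secretase subunit nicastrin, was at 12.27 to 12.71 in B6 (median 12.64) and 11.86 to 12.45 in D2 (median 12.27). Its difference was -0.38 ± 0.09 (adjusted p = 0.00435), with overlapping arrays, and its other probe was at -0.31. Copa and Ncstn were at 0.50 and 0.35 in R2 minus R8. Ppox, an enzyme of heme synthesis, was at -0.43 ± 0.07, with medians of 9.91 in B6 and 9.50 in D2. Usp21, a deubiquitinase, was at -0.44 ± 0.08 and Ufc1, the conjugating enzyme of a ubiquitin-like protein, at -0.29 ± 0.07, and these 3 genes were at 0.48, 0.45 and 0.29 in R2 minus R8. Pex19, a receptor for peroxisomal membrane proteins, was the 1 called gene of the segment with the same sign in both contrasts, at -0.21 and -0.08. It lies across the distal boundary of the R8 segment, so the allele that R8 carries over this gene is not settled. Vangl2, Ncstn, Copa, Pex19 and Igsf8, an immunoglobulin superfamily protein just beyond the R8 segment, are consecutive among the tested genes and were all called lower in D2.

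**Figure D2:**
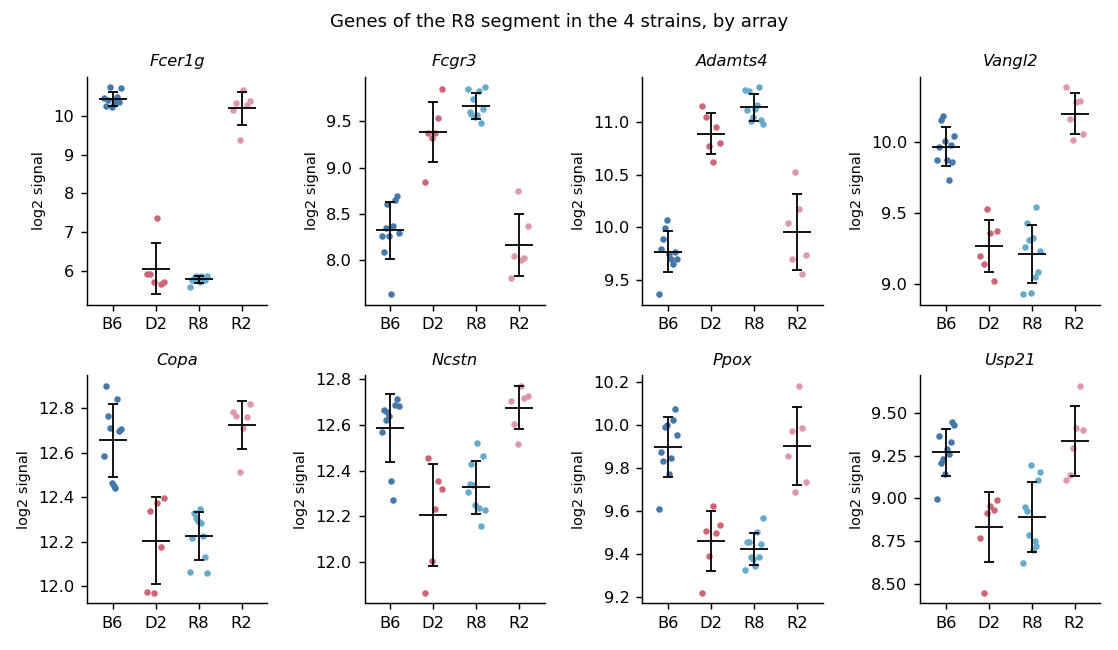
Log2 signals of 8 genes of the R8 segment by array (points), with the mean and SD of each strain (bars), after normalization over all 32 arrays. B6 and R2 carry the B6 allele and D2 and R8 the D2 allele; Fcer1g was between 10.2 and 10.7 in B6 and between 5.58 and 5.88 in R8, which has the D2 allele on the B6 background.

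Copa and Ncstn are transcribed from opposite strands and overlap at their 5′ ends, so that the region upstream of each start lies in the other gene. The 250 bases upstream of a RefSeq start of each gene are shown because the genes lie head to head and were both lower with the D2 allele. Ncstn as annotated reaches to 172082789, so part of its stretch lies inside the gene. They are reference (B6) sequence of chromosome 1, build GRCm38.p6, from RefSeq, at chr1:172082279-172082528 on the plus strand for Copa and chr1:172082750-172082999 on the minus strand for Ncstn. Capitals mark the GC box GGGCGG and the ETS core CCGGAA on either strand.
Copa: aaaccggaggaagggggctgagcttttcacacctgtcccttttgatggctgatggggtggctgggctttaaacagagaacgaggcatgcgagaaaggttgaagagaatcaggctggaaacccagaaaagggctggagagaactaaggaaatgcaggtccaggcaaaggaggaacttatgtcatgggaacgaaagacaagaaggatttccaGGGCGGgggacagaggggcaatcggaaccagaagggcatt
Ncstn: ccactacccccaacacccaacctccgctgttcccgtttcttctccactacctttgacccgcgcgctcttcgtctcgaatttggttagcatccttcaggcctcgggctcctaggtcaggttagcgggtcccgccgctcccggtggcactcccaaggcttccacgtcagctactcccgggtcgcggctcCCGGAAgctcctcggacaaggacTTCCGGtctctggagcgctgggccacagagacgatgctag
Copa had 1 GC box and no ETS core, and Ncstn had 2 ETS cores and no GC box. Of 32851 upstream regions of this length, 32.7% held the GC box and 12% the ETS core. D2 bases of these regions were not examined.

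In the R2 segment beyond R8 both congenics carry B6 sequence, though genes that only overlap its largest possible extent are counted here too. Of its 32 probes, 16 were called in D2 minus B6 (50%, beside 17.8% of all probes). Of the 30 probes tested in both contrasts, 6 were called in R2 minus R8, and these belong to Tada1, Ackr1, Fmn2 and Ccdc190. Tada1, a subunit of the SAGA coactivator complex, was at 11.39 to 11.77 in B6 (median 11.60) and 10.36 to 10.91 in D2 (median 10.64). Its difference was -0.95 ± 0.08 (adjusted p = 2.24e-08) in D2 minus B6 and -0.24 in R2 minus R8 (adjusted p of the difference between contrasts 0.000231). Ackr1, a chemokine-binding receptor that does not signal, was at -0.67 and -0.15, Sft2d2, a membrane trafficking protein, at -0.53 and -0.14, Ccdc181 at -0.52 and 0.02, and Uck2, a uridine-cytidine kinase, at -0.33 and 0.04. The difference between contrasts passed the test for each of these 5 genes by the probe given. For Uck2 it did not pass by the other tested probes (adjusted p of the difference 0.108 and 0.598). Fmn2, an actin nucleator of neurons and oocytes, was instead at -0.36 and -0.22 in D2 minus B6 and at -0.71 and -0.37 in R2 minus R8 by its 2 probes, and Ccdc190 was at 0.29 and 0.14 and at 0.44 and 0.26. All 4 of these probes were called in R2 minus R8, and 1 of them (Fmn2, -0.36) was called in D2 minus B6. The difference between contrasts did not pass the test for any of the 4. Ccdc190 lies inside the segment, where both congenics carry B6 sequence. Fmn2 lies across the distal end of the segment and runs past it, so R2 carries D2 sequence over at least part of that gene. Kcnj9, which encodes the GIRK3 subunit of a G-protein-gated potassium channel, was detected in 2 of 10 B6 and all 6 D2 arrays, at 7.28 to 8.12 and 8.47 to 9.27, and was higher in D2 by 1.10 ± 0.13 (adjusted p = 3.08e-06). It was detected in too few R2 and R8 arrays to be tested there.

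The largest differences over the genome were of genes lower in D2. Thumpd1, an adaptor of tRNA acetylation on chromosome 7, ranged from 11.70 to 12.02 in B6 (median 11.81) and from 5.70 to 6.06 in D2 (median 5.81) and was detected in no D2 array. It was at least 14.4-fold lower in D2 (adjusted p = 1.64e-22). Sspn, which encodes the dystrophin-associated protein sarcospan, was at 10.78 to 11.15 and 5.61 to 5.74, at least 7.99-fold lower. Abhd16a, a phosphatidylserine lipase in the MHC region of chromosome 17, was detected in all 16 arrays, at 13.48 to 13.78 in B6 and 8.30 to 8.68 in D2. Its difference of -5.11 ± 0.07 (adjusted p = 2.99e-21) was the largest measured on both sides. Psmb6, a catalytic subunit of the proteasome, was at 13.17 to 13.52 and 8.63 to 9.08, a difference of -4.50 ± 0.07.

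The other genes of this group were not detected in any D2 array. Erdr1, a secreted factor mapped to the pseudoautosomal region, was at least 8.44-fold lower, and Mettl14, a subunit of the RNA adenosine methyltransferase, at least 7.67-fold lower. Trim59, a RING-finger protein, was at least 10.3-fold lower, Rnf20, a ubiquitin ligase of histone H2B, at least 4.26-fold lower and Slc22a4, a transporter of organic cations, at least 3.71-fold lower. Each of these 9 genes was measured by 1 tested probe, and each was called with the same sign in R2 minus R8, from -3.98 for Trim59 to -6.05 for Thumpd1.

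Where a gene with a large difference had further probes, they often disagreed. Of the 101 probes called at 4-fold or more, 25 in 20 genes had another tested probe of the gene. In 7 of the 20 genes another probe was called in the same direction at 2-fold or more, in 10 no other probe was called in the same direction, and in 4 another probe was called in the opposite direction. Zfp330, a zinc finger gene, was at -5.52 by a probe with a B6 median of 12.36, and at 0.07 by its other probe (adjusted p = 0.601). Prdx2, a peroxiredoxin that removes hydrogen peroxide, was at -3.85 and -2.26 by 2 probes and at 0.41 by its brightest, each with an adjusted p below 0.05. Ndufaf5, an assembly factor of respiratory complex I, was at -3.09 and 0.18. Trim9, a ubiquitin ligase of neurons, was lower by both of its probes (-3.49 and -3.10), as were Rusc2 (-2.56 and -2.50), Mcm6, a subunit of the replicative helicase (-3.82 and -1.44), and Snx5, a sorting nexin (-3.58 and -1.78). Over all genes, 382 genes with several tested probes were called by their brightest probe. In 196 of them another probe was called in the same direction, in 29 in the opposite direction, and in 162 no other probe was called.

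**Figure D3:**
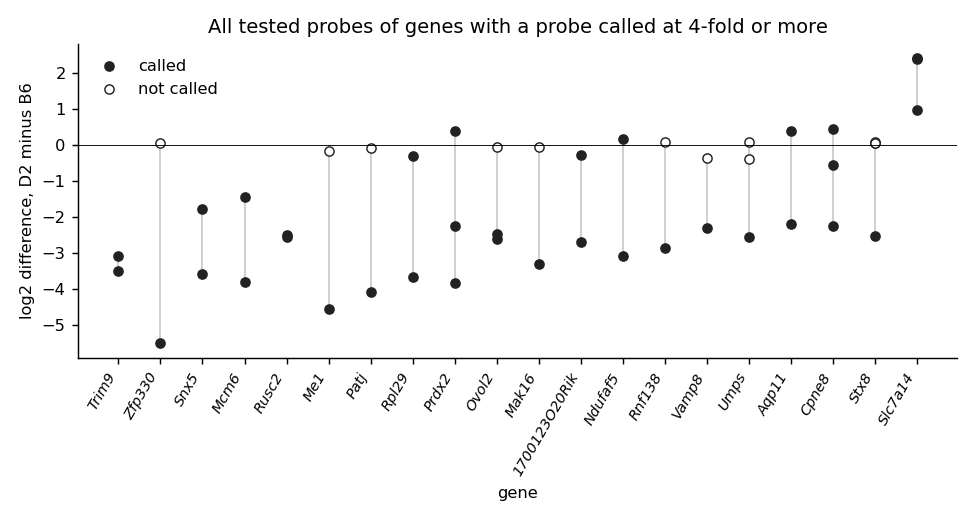
Log2 difference D2 minus B6 (y axis) of every tested probe of the 20 genes that had several tested probes and at least 1 called at 4-fold or more; filled points were called and open points were not. Slc7a14 is the 1 gene higher in D2, and in 10 of the 20 genes no other probe was called in the same direction.

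Genes higher in D2 at large size were fewer. Tmem87a, a membrane protein of the Golgi, was at 6.66 to 7.70 in B6 (median 7.26), where no array detected it, and at 11.20 to 11.48 in D2 (median 11.25). It was at least 10.2-fold higher in D2 (adjusted p = 2.56e-15). Slc7a14, a transporter-like protein of the cationic amino acid family, was measured by 3 probes that were all higher in D2, at 2.39, 2.42 and 0.98. By the first of these it was at 9.93 to 10.37 in B6 (median 10.12) and 12.25 to 12.85 in D2 (median 12.53), 5.23-fold higher (adjusted p = 6.29e-14). Trappc12, a subunit of a vesicle tethering complex, was detected in 1 of 10 B6 arrays and all 6 D2 arrays, with medians of 7.63 and 10.04 (2.36 ± 0.11, adjusted p = 3.17e-12).

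Several of these genes belong to receptor and immune families that whole brain holds in small amounts. Stab2, a scavenger receptor of endothelium, was at least 4.09-fold higher in D2, and its D2 values were spread from 8.48 to 10.83. Vmn1r65, a vomeronasal receptor, was at least 2.39-fold higher, Fpr2, a formyl peptide receptor, at least 2.22-fold, Ccr6, a chemokine receptor, at least 1.72-fold and Serpina1b, a serine protease inhibitor of the alpha-1 antitrypsin family, at least 1.7-fold. None of the 10 B6 arrays detected any of them. Vmn1r65, Serpina1b, Fpr2 and H2-Q5 have close paralogs, so which family member their probes measured is uncertain.

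A list of 14 genes was drawn up because B6 and D2 are known to differ there in sequence or copy number. All 6 of its tested genes were called, 3 higher and 3 lower in D2, beside 18.5% of all genes called. The list was drawn up with earlier results of these data known, so its count is not independent evidence. Alad, the enzyme that makes porphobilinogen in heme synthesis and a gene with extra copies in D2, ranged from 11.89 to 12.27 in B6 (median 12.14) and from 13.26 to 13.64 in D2 (median 13.52). It was 2.61-fold higher in D2 (1.39 ± 0.07, adjusted p = 2.46e-12) and at 1.47 in R2 minus R8. Hdhd3, its neighbour on chromosome 4, was higher by a like amount, 1.40 ± 0.13, with values of 7.80 to 8.78 in B6 and 9.58 to 10.16 in D2. Glo1, the glyoxalase that clears methylglyoxal, was at 13.09 to 13.42 in B6 and 14.09 to 14.27 in D2, 1.90-fold higher (0.93 ± 0.05, adjusted p = 5.04e-11). Myo5a, the myosin altered by the dilute coat-colour mutation of D2, was lower by 0.43 on the log2 scale (median 11.81 in B6 and 11.43 in D2, adjusted p = 0.000174). Mpdz, a scaffold protein of tight junctions and synapses tied to withdrawal from sedatives in mice, was at -0.48 ± 0.08, with values of 9.25 to 9.71 in B6 and 8.83 to 9.25 in D2 that met at their ends (adjusted p = 0.00018). Fcer1g and Kcnj9, described above, complete the list.

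Hbb-b2, the minor adult beta globin, was at 7.03 to 8.46 in B6 (median 7.54) and 11.18 to 11.70 in D2 (median 11.39), a difference of 3.79 ± 0.16 (adjusted p = 5.11e-13). The strains carry different beta-globin haplotypes, and its paralogs are close. Hbb-bt, another adult beta globin, went the other way, at 11.88 to 13.00 in B6 (median 12.13) and 10.04 to 10.66 in D2 (median 10.29), a difference of -1.92 ± 0.15 (adjusted p = 3.56e-09). The red blood cell markers outside the beta-globin genes, Hba-a1 and Alas2, were at -0.08 and -0.03 and were not called.

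Several genes that microglia, the resident immune cells of the brain, express were lower in D2. Of 12 tested microglial genes, 6 were lower and 1 was higher in D2 (58.3% called, beside 18.5% of all genes), with a median of -0.275 against 0.0169 over all genes. Fcrls, a marker of resident microglia, was at 9.07 to 9.77 in B6 (median 9.52) and 7.90 to 8.29 in D2 (median 8.04), 2.69-fold lower (-1.43 ± 0.10, adjusted p = 8.21e-10). C1qb and C1qc, chains of the complement protein C1q that microglia make, were 2.24- and 1.99-fold lower, with B6 medians of 11.00 and 11.14 and D2 medians of 9.80 and 10.11. The third chain, C1qa, was lower by 0.34 on the log2 scale (adjusted p = 0.012), with overlapping arrays. The genes of the 3 chains are neighbours on chromosome 4. Tyrobp, a signalling adaptor, and Trem2, a receptor that uses it, were at -0.45 and -0.31, and the purinergic receptor P2ry12 was at 0.33 (adjusted p = 0.0438). In whole brain, fewer cells of a type and less RNA per cell cannot be told apart. The summed signal of the 12 genes, on the linear scale after normalization, was 17400 to 18450 in D2 and 19470 to 23280 in B6. Lists of other cell types are given beside it. Of 10 tested genes of endothelial and mural cells 2 were lower and none was higher (20% called, near the 18.5% of all genes). Their median was -0.123, and their summed signal was 22140 to 24260 in D2 and 25350 to 27090 in B6, with no overlap. The 2 were Acta2, the smooth muscle actin (-0.32), and Vwf, the von Willebrand factor (-0.55), whose call was lost under 13 of 29 alternative settings. Of 8 tested genes of the meninges 3 were lower and 1 was higher (50% called), with a median of -0.0722 and overlapping sums of 29830 to 34500 in D2 and 26190 to 32390 in B6. Among them Col1a2, a chain of type I collagen, was at least 1.79-fold lower (8.51 to 9.23 in B6 and 6.19 to 6.92 in D2, where no array detected it, adjusted p = 5.06e-12), and Dcn, the matrix proteoglycan decorin, was at 0.51. In R2 minus R8 the median was -0.0656 for the endothelial and mural genes tested there and 0.0351 for those of the meninges. The part of these cell types in the microglial values was not tested. In R2 minus R8 the same 12 microglial genes gave 5 lower and 2 higher calls, beside 10.6% of all probes lower and 11.8% higher. Fcrls was at -1.73, C1qb at -1.11, C1qc at -1.06 and C1qa at -0.38 there.

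Among 7 tested complement genes, 4 were lower and 1 was higher in D2 (71.4% called, beside 18.5% of all genes), and the C1q chains stand in both lists. The 4 were the C1q chains and C2. The 1 higher was Cd59a, which blocks the membrane attack complex. It was at 11.22 to 11.95 in B6 (median 11.62) and 12.45 to 13.07 in D2 (median 12.81), 2.24-fold higher (1.16 ± 0.10, adjusted p = 1.48e-08).

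Of 16 tested genes of the MHC and antigen presentation, 6 were lower and 4 were higher in D2 (62.5% called, beside 18.5% of all genes), the strains having different MHC haplotypes. H2-Aa, the alpha chain of a class II molecule, was detected in all B6 arrays at 8.29 to 8.79 and in no D2 array, at least 1.44-fold lower in D2. Its partner chain H2-Ab1 was detected in all D2 arrays at 8.23 to 8.65 and in no B6 array, at least 1.4-fold higher. The class I genes H2-K1 and H2-Q5 were likewise detected in all D2 arrays and no B6 array, at least 2.06- and 2.09-fold higher. These families are highly variable between haplotypes, and the probes of the array may bind 1 allele only, so the values describe probes rather than amounts of protein or RNA. B2m, the shared light chain of class I molecules on chromosome 2, was lower in D2 by both probes (-0.49 and -0.38, adjusted p = 3.55e-05 and 0.00173). Psmb9, an inducible proteasome subunit, was at 7.67 to 8.49 in B6 and 6.68 to 7.70 in D2, where it was not detected. Of 18 tested interferon-induced genes 2 were lower and none was higher, so the share called was 11.1%.

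**Figure D4:**
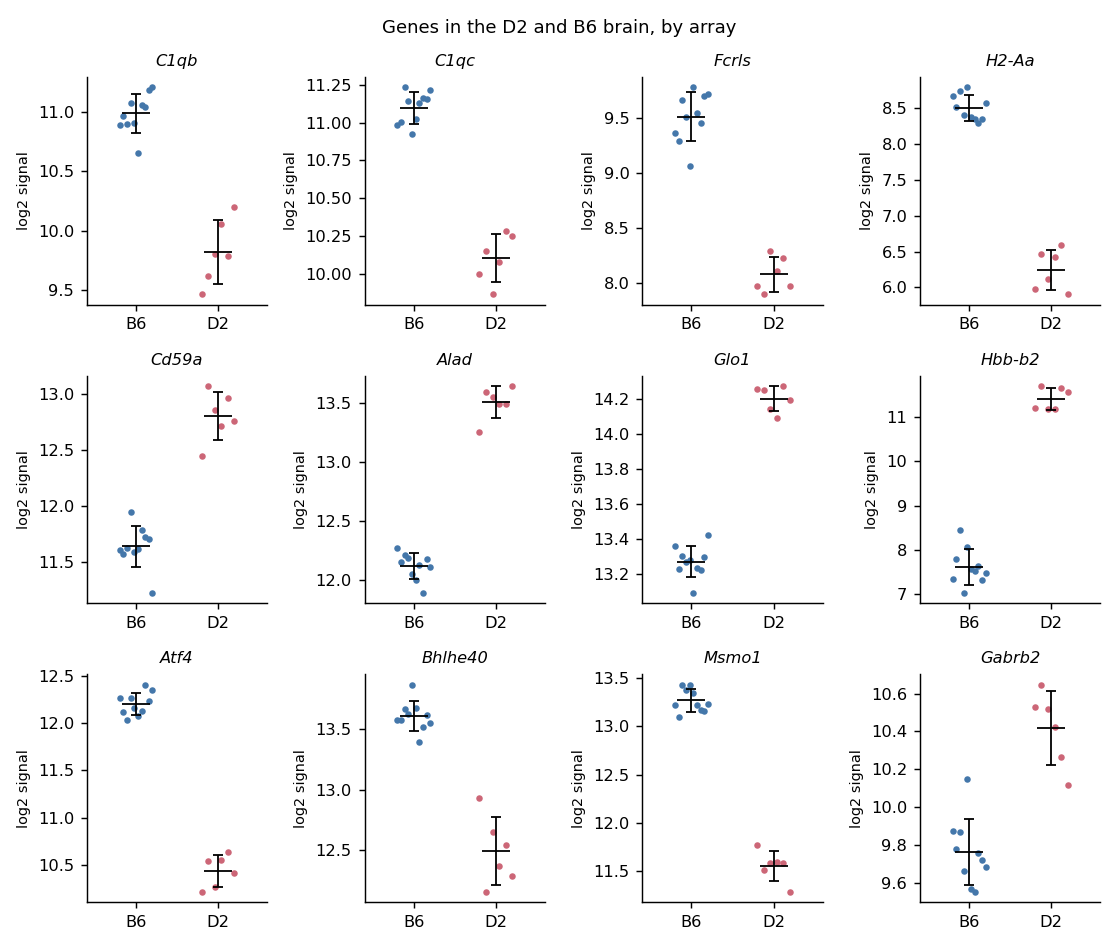
Log2 signals of 12 genes in each B6 and D2 array (points), with the mean and SD of each strain (bars), after normalization over the 16 arrays. In all panels but Gabrb2 the arrays of the strains do not overlap; the H2-Aa values in D2 are not above background.

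Of 19 tested genes of a list of the stress transcription factor Atf4, its targets and amino acid transporters, 8 were lower and 1 was higher in D2 (47.4% called, beside 18.5% of all genes), with a median of -0.155 against 0.0169 over all genes. Atf4 itself was at 12.03 to 12.41 in B6 (median 12.20) and 10.21 to 10.63 in D2 (median 10.48), 3.41-fold lower by its 1 tested probe (-1.77 ± 0.07, adjusted p = 2.7e-13), and at -1.42 in R2 minus R8. Slc7a11, the cystine-glutamate exchanger, was at 10.67 to 11.12 in B6 and 10.09 to 10.31 in D2 (-0.66 ± 0.07, adjusted p = 2.67e-07). Phgdh and Asns, enzymes of serine and asparagine synthesis, were at -0.44 and -0.20 and Ddit4, an inhibitor of mTOR signalling, at -0.30. Shmt2, a mitochondrial enzyme of serine breakdown, was at 0.49. The list did not have this direction in the other mice. In R2 minus R8 the same genes gave 3 lower and 5 higher calls, beside 10.6% of all probes lower and 11.8% higher. Their median was 0.116, with Slc7a11 at -0.84, Phgdh at -0.27 and Asns at 0.05.

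Of 26 tested chaperones, 6 were lower and 2 were higher in D2 (30.8% called, beside 18.5% of all genes), with a median of 0.0134. The heat shock proteins Hspa1a (-0.63), Hspb1 (-0.49), Hspb8 (-0.46), Hspa12a (-0.43) and Hspa2 (-0.25) were lower. Dnajc3, an inhibitor of the kinase PERK in the endoplasmic reticulum, was at 10.22 to 10.53 in B6 and 9.48 to 9.78 in D2 (-0.78 ± 0.06, adjusted p = 7.66e-09). The endoplasmic reticulum chaperones Hyou1 and Pdia6 were higher, at 0.75 and 0.66. In R2 minus R8 these 3 genes were at -0.62, 0.70 and 0.50.

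Of 16 tested genes of the circadian clock, 5 were lower and 3 were higher in D2 (50% called, beside 18.5% of all genes). Bhlhe40, a transcriptional repressor of the clock, was at 13.39 to 13.87 in B6 (median 13.60) and 12.16 to 12.94 in D2 (median 12.46), 2.17-fold lower (-1.12 ± 0.10, adjusted p = 2.17e-08). Per2 was lower by both of its probes (-0.58 and -0.57) and Ciart by both of its own (-0.56 and -0.55), while Per3 was higher by 0.59 ± 0.08 and Arntl, the activator of the clock, by 0.22. In R2 minus R8, Bhlhe40 was at -1.23, Per2 at -0.74, Per3 at 0.45 and Arntl at 0.47. The hour at which each brain was taken is not given in the sources used here, and its part in these differences was not tested.

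Receptors of the main brain transmitters differed in a few members. Of 6 tested GABA-A receptor subunits 2 were higher in D2 (33.3% called), and of 8 glutamate receptor subunits 2 were higher and 1 was lower (37.5%), beside 18.5% of all genes. Gabrb2 was at 9.56 to 10.15 in B6 (median 9.74) and 10.11 to 10.65 in D2 (median 10.47), a difference of 0.65 ± 0.09 (adjusted p = 1.75e-05), and its dimmer probe was at 0.06 (adjusted p = 0.801). Gabra6, of cerebellar granule cells, was at 0.50 (adjusted p = 0.0368), a call lost under 13 of 30 alternative settings. Among the glutamate receptor subunits, Gria1, an AMPA receptor subunit, was higher by each of its 3 probes (0.37, 0.41 and 0.37), Grik1 was at 0.32, and Grik4, a kainate receptor subunit, was at 8.08 to 8.64 in B6 and 6.95 to 7.94 in D2 (-0.74 ± 0.13, adjusted p = 0.000214), detected in 1 of 6 D2 arrays. None of 11 tested genes of monoamine synthesis, transport and breakdown was called, nor any of 7 striatal genes. Of 12 tested forebrain neuropeptides and opioid precursors 3 were higher and 2 were lower in D2 (41.7% called, beside 18.5% of all genes). Cort, described above, was lower, at -1.26 by its brighter probe. The dynorphin precursor Pdyn was at 0.34 (adjusted p = 0.00478) by its brighter probe and 0.06 by the other, and Vip was at 0.30.

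Astrocyte genes went both ways, with 3 higher and 1 lower in D2 of 9 tested (44.4% called, beside 18.5% of all genes). Glul, the glutamine synthetase that converts glutamate taken up by astrocytes, was at 12.49 to 13.04 in B6 (median 12.76) and 11.81 to 12.27 in D2 (median 11.97), a difference of -0.80 ± 0.09 (adjusted p = 1.11e-06). Slc1a2, the main glutamate transporter of the forebrain, was higher by 0.45 ± 0.06 by its brightest probe (adjusted p = 8.19e-06), and its 2 other probes were at -0.34 and 0.17 and were not called. Gfap, the intermediate filament of astrocytes, was at 9.03 to 9.80 in B6 and 9.58 to 10.36 in D2 (0.60 ± 0.12, adjusted p = 0.00079).

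Genes of the large housekeeping complexes were called at or below the share of all genes, and their medians were near 0. Of 55 cytosolic ribosomal protein genes 8 were lower and 1 was higher in D2 (16.4%), of 68 mitochondrial ribosomal protein genes 6 were lower and 3 higher (13.2%), of 34 proteasome genes 4 were lower (11.8%), and of 33 genes of respiratory complex I 2 were higher and 1 lower (9.09%). Single subunits stood out. Mrpl48 was lower by each of its 3 probes (-1.37, -1.46 and -0.88), with B6 values of 12.04 to 12.36 and D2 values of 10.66 to 10.94 by the brightest. Rps15a was 2.29-fold lower (12.33 to 12.70 in B6 and 11.16 to 11.55 in D2) and Psmb5, a catalytic subunit of the proteasome, 2.05-fold lower. Ndufb10, of complex I, was 1.59-fold higher. Ribosomal protein genes have many near-identical pseudogenes, so their values are uncertain. Msmo1, a sterol oxidase of cholesterol synthesis, was 3.29-fold lower (13.09 to 13.43 in B6 and 11.29 to 11.77 in D2, adjusted p = 2.72e-13), whereas of the 17 tested genes of that pathway 2 were lower and 2 higher.

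Over the autosomes and chromosome X, the share of genes called ran from 24.6% on chromosome 17, which holds the MHC, 23.8% on chromosome 1 and 23.6% on chromosome 4 down to 13.2% on chromosome 16, 12.6% on chromosome 10 and 11.5% on chromosome X, beside 18.5% over all genes. On chromosome Y, 1 of 3 tested genes was called. Calls went mostly up in D2 on chromosome 18 (29 higher and 9 lower) and chromosome X (24 and 8), and mostly down on chromosome 7 (50 and 82) and chromosome 3 (30 and 51). Of 239 windows of 10 Mb with at least 10 tested genes, 226 held at least 1 called gene and 13 held none.

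**Figure D5:**
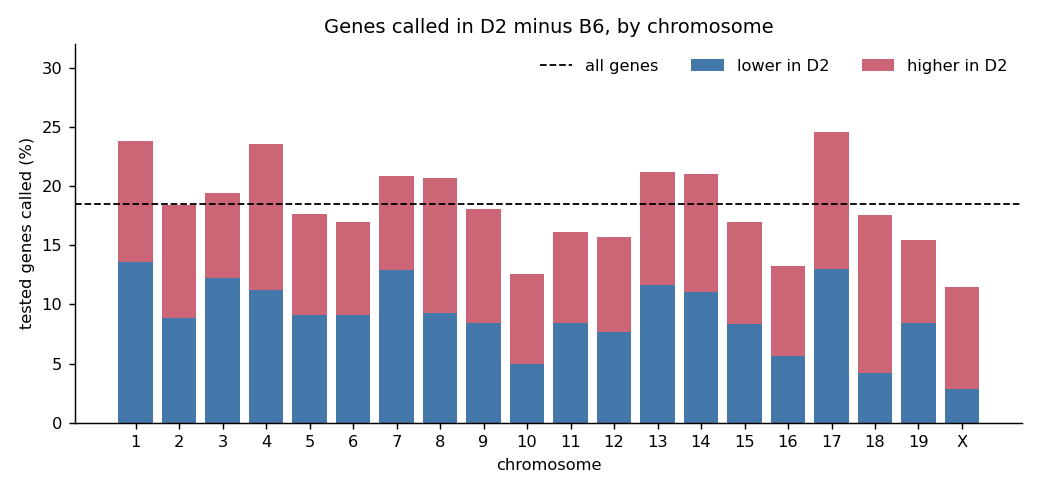
Percent of tested genes called in D2 minus B6 on each autosome and chromosome X, stacked by direction; the dashed line is the share over all genes (18.5%). Chromosomes 17, 1 and 4 lie above the line, and chromosomes 16, 10 and X are the lowest.

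Shares above 50% were found in 5 windows. On chromosome 8 from 30 to 40 Mb, 10 of 14 genes were called (71.4%), 5 in each direction. Fut10, a fucosyltransferase, was not detected in D2 (at least 1.77-fold lower), and Trmt9b, a tRNA methyltransferase, was higher by 0.65 ± 0.07. Mak16, a ribosome biogenesis factor, was at -3.30 by 1 probe and -0.05 by the other, and Saraf, a regulator of calcium entry, was at -0.44, 0.58 and -0.25 by its 3 probes, the first 2 of which were called. On chromosome 1 from 160 to 170 Mb, which overlaps the R2 segment, 13 of 23 genes were called (56.5%), 9 of them lower in D2. Beside Tada1 and Sft2d2, described above, Cacybp, a binding partner of the ubiquitin ligase adaptor SIAH, was at -0.97 ± 0.10 and Scyl3, a kinase-like protein, at 0.58 ± 0.06. On chromosome 7 from 90 to 100 Mb, 17 of 31 genes were called (54.8%), 14 of them lower in D2, among them Dgat2, which makes triglycerides (12.14 to 12.45 in B6 and 11.58 to 11.72 in D2), and Thrsp, a lipogenic nuclear protein (-1.14 ± 0.18, adjusted p = 5.89e-05). On chromosome 14 up to 10 Mb, 6 of 11 genes were called (54.5%), 4 of them higher in D2, with Rpp14, a subunit of ribonuclease P, at -0.48 ± 0.06, Cfap20dc at -0.60 ± 0.08 and Fhit, a nucleotide hydrolase, at 0.57 ± 0.07. On chromosome 12 from 20 to 30 Mb, 9 of 17 genes were called (52.9%). Adi1, an enzyme of methionine salvage, was higher by both probes (1.40 and 1.56), Adam17, a sheddase of membrane proteins, was higher by 0.62 ± 0.08, and Mboat2, an acyltransferase of phospholipids, was lower by each of its 4 probes (-1.91, -1.29, -1.29 and -0.86).

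Histone genes made up most of a further window. On chromosome 13 from 20 to 30 Mb, 17 of 38 genes were called (44.7%, beside 18.5% of all genes) and all 17 were lower in D2. The window was singled out after its values were seen. Of 24 tested replication-dependent histone genes of chromosome 13, 14 were lower and none was higher in D2, beside 9.38% of all genes lower. Their median was -0.276, and 3 genes were lower by 1.5-fold or more. H2bc7 was at -0.68 ± 0.05 (adjusted p = 3e-09), H2bc6 at -0.85 ± 0.13 and H2bc9 at -0.60 ± 0.07, and their arrays did not overlap. Of 5 such genes on chromosome 3, 1 was lower. In R2 minus R8, 10 of the 24 were lower and none was higher, beside 10.6% of all probes lower in R2, with a median of -0.21. The genes of this cluster are nearly identical in sequence, so the probes are not independent of each other and the member each one measured is uncertain. The called genes were H2a and H2b genes and H1f2, and none of the tested H3 and H4 genes of chromosome 13 was called.

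Clustered protocadherins, adhesion proteins that give neurons their identity, lie in a gene cluster on chromosome 18. Of 15 tested, 6 were higher and 1 was lower in D2 (46.7% called, beside 18.5% of all genes), with a median of 0.279 against 0.0169 over all genes. Pcdhb3 was at 9.10 to 9.52 in B6 (median 9.28) and 10.07 to 10.39 in D2 (median 10.33), 1.96-fold higher (0.97 ± 0.07, adjusted p = 3.27e-09), and at 1.26 in R2 minus R8. Pcdhb10 and Pcdhb22 were at 0.72 and 0.62. In R2 minus R8, 3 of 14 tested were higher and none was lower, with a median of 0.312. Of all probes, 22.4% were called in that contrast and 11.8% were higher in R2, so this count is near the share of all probes. The members are close paralogs, so the gene that each probe measured is uncertain.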

How the data were processed

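Gene expression was measured in the whole brain of 32 mice, each on its own bead array (Illumina Mouse Ref8 v2). The authors deposited a non-normalized table holding, for each probe and array, a signal intensity and a detection p-value. They also deposited a table of normalized signals (made with the lumi package, according to the methods). These were put on the log2 scale here and used only as an alternative. The intensities of the 16 D2 and B6 arrays were corrected for background and quantile normalized together with neqc of limma 3.58.1 in R 4.3.3, with an offset of 16. Probes with a detection p below 0.01 in at least 6 arrays were kept. Strains were compared with lmFit and eBayes, and p-values were adjusted by Benjamini-Hochberg over all tested probes, with calls at 0.05. R2 and R8 arrays were treated in the same way, and the difference between contrasts was fitted over all 32 arrays. The script was tested on simulated data.

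A gene was represented by its tested probe with the highest mean signal. Of 25697 probes, 23978 were given 1 gene symbol and 1719 none, and a probe annotated with several symbols was given none. Symbols are those of RefSeq where the gene of a probe was found there, and otherwise those of the platform annotation. Positions and upstream sequences are from RefSeq, GRCm38.p6. For a probe not detected on any array of 1 strain, "at least N-fold" compares the mean of the other strain with the higher of the lowest detected signal and the probe's own signal, averaged over arrays. Replicates are separate mice. The number of arrays limits the precision.

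Named genes were the 10 with the largest change in each direction among called genes whose strains did not overlap, the gene with the smallest p on each chromosome, up to 3 called genes of each list (or the member with the smallest p), the called genes of the R8 segment, up to 4 called genes of each of the 5 windows with the highest share called, and up to 5 genes outside the R2 segment called in opposite directions in the contrasts. The members and gene lists were chosen with earlier results of these data known. Atf5, Hdhd3, Hbb-bt, Fmn2, Ccdc190, Igsf8, Ackr1, Ccdc181, Uck2, the genes whose probes disagree, the histone genes and further list members given as values were chosen after their values were seen. Alternatives covered background correction, scaling, filters, array weights, blocks and single arrays left out.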

Additional observations from a re-analysis of the deposited data

Results flagged for a closer look

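Among the named genes, 17 of 312 groups of arrays held 1 array far from the others of its strain, and chance flags about 1 in 20 groups. D2 replicate 1, which also stood apart on the second principal component, accounted for 6 of the 17. It was the lowest D2 array for Avp (8.12), Fpr2 (8.57), Grik4 (6.95), Mapt (13.10) and Pdyn (12.49) and the highest for Cat (11.13). Of the other D2 arrays, replicate 6 was highest for Erdr1 (7.39), replicate 4 highest for Fcer1g (7.38) and lowest for Ndufc2 (13.94), replicate 5 highest for Napa (12.30) and replicate 3 highest for Rpp14 (12.02). Erdr1 and Fcer1g were not detected in these arrays. Of the B6 arrays, replicate 10 was highest for Adi1 (11.61) and lowest for Cd59a (11.22), replicate 5 highest for Glrx (13.43) and lowest for Scyl3 (8.04), replicate 3 lowest for Mrps27 (9.00) and replicate 9 highest for Trappc12 (8.33).

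The difference between D2 minus B6 and R2 minus R8 passed its own test for 14 named genes. In the R8 segment, where the congenics exchange alleles, it was -8.76 for Fcer1g, 2.56 for Fcgr3, 2.31 for Adamts4, -1.68 for Vangl2, 0.97 for B4galt3, -0.95 for Copa, -0.91 for Ppox, -0.88 for Usp21, -0.73 for Ncstn and -0.59 for Ufc1. In the R2 segment beyond R8 it was -0.71 for Tada1 and -0.39 for Sft2d2. Outside the segment it was -0.49 for Insm1 and -0.41 for Leo1.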

How the results depend on the processing

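The count of called probes, 2138, stayed between 1755 (probes detected in all 16 arrays) and 2441 (all 32 arrays in 1 fit) under the other settings apart from the replicate block. The settings tested different numbers of probes. The share called was 17.8% in the main setting and 17.1% and 20.4% in these 2. Without a detection filter 2362 of 25697 probes were called, a share of 9.19%. With the replicate number as a block, which the labels do not say pairs mice, 1490 probes were called, 668 of them higher in D2. Deviations of same-numbered arrays correlated between -0.225 and 0.312. With blocks of neighbouring columns, chosen after seeing the data, 2012 were called. Leaving out 1 array gave 1914 to 2130 calls, 894 to 1027 higher and 1020 to 1103 lower in D2. With median scaling, the difference between contrasts called 23 probes in place of 37. Represented by the probe with the second highest mean signal, the sign turned for B4galt3 (-0.00328), Napa (-0.30), Prdx2 (-2.26), Rnf138 (0.0908), Rps3 (0.17) and Saraf (0.58). The causes were not tested. Without background correction, 32 probes were at least 4-fold lower and 4 at least 4-fold higher in D2, in place of 84 and 17. Without any 1 of the 6 D2 arrays, 7 to 8 probes were at least 4-fold higher, since a probe detected in D2 alone can then no longer be detected in 6 arrays. Signals near background limit the size of such differences.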
